A study of Mus musculus with 8 samples.

Results

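The genes described here are those of fatty acid oxidation, the peroxisome proliferator-activated receptors (PPARs) and the enzymes that make, use or split acyl-CoA. They were taken by symbol from a list of 51 genes, and 48 of the 51 had at least 10 counts in at least 3 of the 8 libraries, among 12137 genes that passed this filter and 55367 in the count table. RNA came from a fibroblastic reticular cell (FRC) line made from lymph nodes of C57BL/6 mice carrying the p53 ER/ER alleles, a line characterized in the study by podoplanin and VCAM-1 and by the absence of CD45 and CD31. All cells were kept for 4 days in RPMI with added serum, refreshed after 48 hours, under 4 conditions with 2 libraries each. Vehicle cells received water in RPMI, LA cells received 15 mmol/L lactic acid in RPMI, CCM cells received medium conditioned by FRCs, and TCM cells medium that B16.F10 melanoma cells had conditioned. The study asked how factors from tumor cells, and lactic acid in particular, alter the metabolic state of FRCs, and it pairs TCM with CCM and LA with vehicle. It drew a fatty acid theme from these same libraries, so the genes listed here are not an independent sample.

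FRCs are the fibroblasts that build the network of the lymph node T-cell zone. Fatty acids that enter a cell are joined to coenzyme A by acyl-CoA synthetases and carried into mitochondria by the carnitine shuttle, where repeated rounds of dehydrogenation, hydration, dehydrogenation and thiolysis release acetyl-CoA. Electrons from the first step pass through the electron transfer flavoprotein to the respiratory chain, very long and branched chains are shortened in peroxisomes, and PPARs are nuclear receptors that bind fatty acids and drive many of these genes as partners of the retinoid X receptor.

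The libraries held between 8232889 and 14107964 counts on genes, so that 3 counts, taken as the floor, equalled 0.212 to 0.355 CPM (counts scaled to library size). Of 10 FRC markers, Pdpn, Vcam1, Pdgfra, Pdgfrb and Col1a1 were present in every library, whereas the T-zone chemokine Ccl21a was at 0 in all libraries and Ccl19 had 1 count in all. Thy1 had 1 to 16 counts per library and Il7 had 5 to 26. Col1a2 stood at 6.37 to 15.2 CPM, beside 12572 to 17235 for Col1a1. Ptprc, which encodes CD45, was at 0 in all libraries, and so were the leukocyte markers Cd3e and Itgam. The TCM libraries stood apart from each other: their counts differed by a chi-square per degree of freedom of 20.6, against 3.31 to 7.45 within the other conditions. The study calls the libraries of a condition biological replicates, and the labels do not say whether they came from separate cultures, so P values measure the spread between these libraries. In bulk RNA a change in the share of cells with a transcript cannot be told apart from a change per cell.

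With TCM, 8 of the 48 genes were higher than with CCM and 2 were lower. The call asked for an adjusted P value under 0.05 (edgeR quasi-likelihood test, adjusted over all genes tested) and a log2 fold change (FC) beyond 0.39. The genes that rose were Pparg, Acads, Acadsb, Acad10, Etfb, Ech1, Acaa1a and Scp2, and the genes that fell were Acsl3 and Acot2. The share called higher was 16.7%, against 8.83% of all genes tested, and the share called lower was 4.17%, against 10.2%. Without the fold threshold, 15 genes passed upward and 3 downward, 31.2% and 6.25% of the 48, where 10.1% of all genes passed upward and 11.2% downward. Most of the changes were small. The log2 FC was above 0 in 37 of 48 genes, 77.1% against 50% of all genes tested. Its median was 0.26 and its range −0.61 to 0.89, while the median of all genes tested was 0.000322. Both TCM libraries lay above both CCM libraries in 31 genes, 64.6% of the 48 against 27.8% of all genes, and below them in 8, 16.7% against 30.5%. No listed gene had a log2 FC beyond 1, a threshold at which 2.06% of all genes tested were called higher and 4.2% lower. Without TMM factors, the scaling used here for library composition, the split was 2 higher and 3 lower. These were 4.17% and 6.25% of the 48, against 5.36% and 16.8% of all genes, so the share called higher was not above that of all genes. The median was 0.12, against a median of all genes that moved to −0.14.

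The heat map orders the genes by step. TCM library 1 was the higher of the TCM libraries in 37 of the 48 genes.

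**Figure D1:**
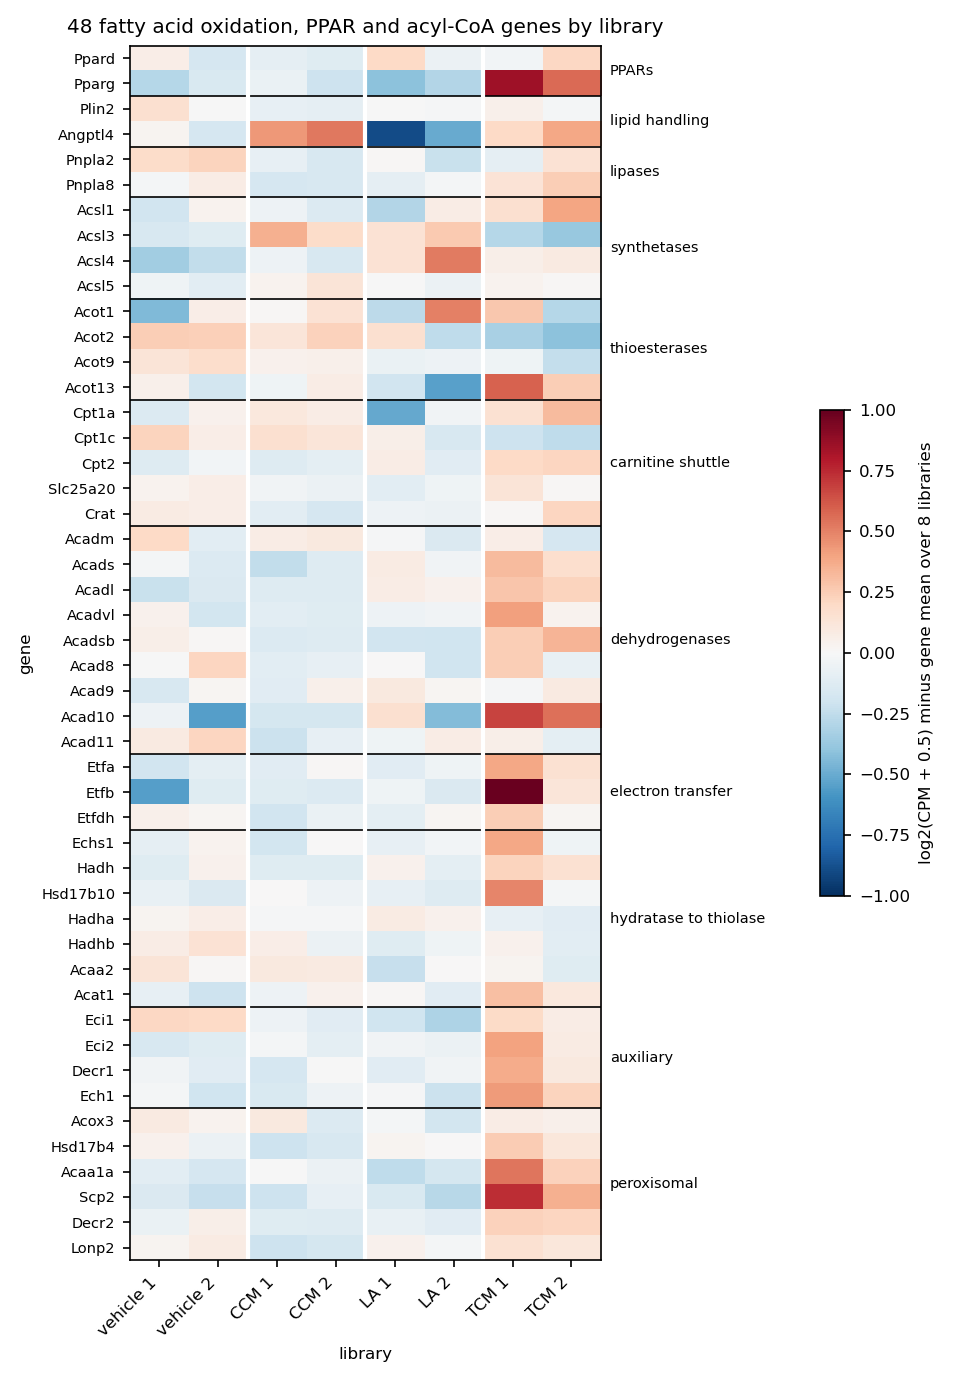
Level of the 48 genes that passed the count filter in each of the 8 libraries, as log2(CPM + 0.5) minus the mean of that gene over the 8 libraries, with genes grouped by their step in the pathway and colours limited to −1 and 1. Both TCM libraries lie above both CCM libraries in 31 of the 48 genes, and Acsl3 and Acot2 run the other way.

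Of the PPARs, Pparg rose with TCM, Ppard was expressed and not called, and Ppara was not detectable. Pparg, which encodes the receptor best known from adipocytes, stood at 16 and 13.1 CPM with TCM, 8.26 and 7.46 with CCM, 7.04 and 7.77 with vehicle, and 6.39 and 6.98 with LA. Both TCM libraries lay above the other 6, which lay close together. The rise over CCM was 1.85-fold, a log2 FC of 0.89 ± 0.17 (SE, n = 2 per condition) with an adjusted P value of 0.00366 in edgeR. Leaving out any 1 of the 8 libraries kept the call, with log2 FC from 0.73 to 1.02. Ppard, a receptor found in most tissues, stood at 40.2 and 47.5 CPM with TCM against 38.5 and 37.7 with CCM, and at 47.1 and 39.3 with LA against 43.1 and 36.4 with vehicle, so that it was higher in both TCM libraries and overlapped between LA and vehicle. Its log2 FC of 0.20 ± 0.13 with TCM did not pass (adjusted P = 0.322, edgeR). Ppara, the receptor known for driving fatty acid oxidation in liver, had 0 to 3 counts per library, at or under the floor in all 8.

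Pparg lies on chr6:115360951-115490399 (GRCm38, plus strand), and RefSeq places 3 transcription starts in it. The counts are per gene and do not show which start was used. The 250 bases before each start are printed because Pparg, Scp2 and Acsl3 were the genes called between TCM and CCM whichever library was left out. Capitals mark exact copies of AGGTCA, the hexamer that nuclear receptors bind, or of its reverse complement. The coordinates of the sequences are, in order, chr6:115360894-115361143, chr6:115362099-115362348 and chr6:115421816-115422065 on the plus strand, chr4:108118548-108118797 on the minus strand, and chr1:78657575-78657824 on the plus strand, all from RefSeq on GRCm38.p6.
Pparg start 1: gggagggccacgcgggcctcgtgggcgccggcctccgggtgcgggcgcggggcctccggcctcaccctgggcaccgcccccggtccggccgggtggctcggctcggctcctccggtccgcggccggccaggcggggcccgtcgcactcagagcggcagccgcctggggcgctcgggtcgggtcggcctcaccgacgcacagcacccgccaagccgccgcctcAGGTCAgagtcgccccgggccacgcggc
Pparg start 2: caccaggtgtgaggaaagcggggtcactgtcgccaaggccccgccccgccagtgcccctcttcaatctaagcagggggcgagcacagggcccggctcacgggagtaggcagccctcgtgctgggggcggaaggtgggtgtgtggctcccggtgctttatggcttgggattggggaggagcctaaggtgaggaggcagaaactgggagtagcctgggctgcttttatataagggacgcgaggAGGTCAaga
Pparg start 3: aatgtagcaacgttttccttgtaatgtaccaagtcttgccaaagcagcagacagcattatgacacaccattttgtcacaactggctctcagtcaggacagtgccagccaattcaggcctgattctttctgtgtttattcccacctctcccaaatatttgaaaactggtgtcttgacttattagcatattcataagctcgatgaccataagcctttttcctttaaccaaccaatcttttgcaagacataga
Scp2: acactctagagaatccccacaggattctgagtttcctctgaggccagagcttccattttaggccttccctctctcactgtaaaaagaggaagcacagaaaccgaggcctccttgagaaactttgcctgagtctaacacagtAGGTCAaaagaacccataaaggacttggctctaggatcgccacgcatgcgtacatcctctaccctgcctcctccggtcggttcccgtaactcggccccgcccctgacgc
Acsl3: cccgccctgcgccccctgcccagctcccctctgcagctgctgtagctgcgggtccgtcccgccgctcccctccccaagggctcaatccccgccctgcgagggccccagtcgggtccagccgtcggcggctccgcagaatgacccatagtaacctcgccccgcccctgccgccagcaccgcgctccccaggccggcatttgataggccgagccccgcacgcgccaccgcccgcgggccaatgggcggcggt
A hexamer was thus present before RefSeq starts 1 and 2 of Pparg and before that of Scp2, and absent before start 3 and before that of Acsl3. GENCODE begins Pparg at chr6:115360951, inside the stretch of start 1, so the hexamers before starts 1 and 2 lie within the gene as GENCODE places it. GENCODE places Scp2 on chr4:108043839-108144998 (GRCm38, minus strand), which extends upstream of the stretch printed here. Its counts do not show which start was used either. Over all genes with a RefSeq sequence, 14.0% of the 32851 stretches of this length held at least 1, and 10 of 47 stretches of the listed genes did (21.3%).

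A pair of hexamers in the same direction with 1 base between, the DR1 element to which PPARs and the retinoid X receptor bind, was rarer. It was searched on both strands in windows from 250 bases before to 50 bases after each start, with up to 2 mismatches over the 12 letters of both hexamers, and a match can overlap a single hexamer as counted above. RefSeq had a window for 43 of the 51 genes, 47 windows in all, and 5 of the 47 held a match (10.6%) against 3.86% of all windows. The genes were Cd36, Plin2, Slc25a20, Etfa and Echs1, and each match carried 2 mismatches. In Slc25a20 it began 6 bases after the start. The other 4 are printed with 24 bases on either side and the match in capitals, to set them beside the expression values, from chr5:17835923-17835983, chr4:86670248-86670308, chr9:55512284-55512344 and chr7:140116468-140116528, all on the minus strand of GRCm38.p6.
Cd36: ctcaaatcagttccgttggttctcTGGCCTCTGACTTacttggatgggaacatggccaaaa
Plin2: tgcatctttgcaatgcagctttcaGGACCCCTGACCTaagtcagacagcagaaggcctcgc
Etfa: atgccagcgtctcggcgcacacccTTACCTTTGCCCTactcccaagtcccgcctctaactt
Echs1: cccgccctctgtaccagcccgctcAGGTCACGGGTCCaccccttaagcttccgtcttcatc
Cd36 had no counts to test, none of the other 4 genes was called in any comparison, and none of the genes called with TCM had a match in its window. A match is a likeness of letters and not a site shown to be bound, and a window without one says nothing of elements elsewhere.

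Of the 4 listed genes of lipid uptake, binding, storage and lipase control, Plin2 and Angptl4 could be tested, and neither passed in any comparison. Cd36, which encodes a fatty acid transporter of the plasma membrane, was at 0 counts in all 8 libraries. Fabp3, a fatty acid binding protein of heart and muscle, had 0 to 3 counts per library. Plin2, which coats lipid droplets, ranged from 38.0 to 45.1 CPM over the 8 libraries and had a log2 FC of 0.10 ± 0.10 with TCM and −0.09 ± 0.10 with LA. Angptl4, a secreted inhibitor of lipoprotein lipase, had the fewest counts of the genes that passed the filter, 4 to 23 per library, with 10 or more in 7 of the 8 libraries. Angptl4 stood at 0.473 and 0.776 CPM with LA and at 1.34 and 1.11 with vehicle, both LA libraries being the lower, yet its log2 FC of −0.87 ± 0.42 did not pass at this depth (adjusted P = 0.381, edgeR). Of the lipases, Pnpla8 passed the test upward with TCM (adjusted P = 0.0232, edgeR) at a log2 FC of 0.36 ± 0.10, inside the fold threshold, and Pnpla2 stood at a log2 FC of 0.15 ± 0.13.

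Among the 4 acyl-CoA synthetases, Acsl3 fell with TCM and Acsl4 rose with LA. Acsl3, a synthetase of the endoplasmic reticulum and of lipid droplets, stood at 59.1 and 55.3 CPM with TCM, 92.4 and 81.9 with CCM, 64.6 and 66.3 with vehicle, and 79.6 and 86.6 with LA. The CCM and LA libraries were the 4 highest and the TCM libraries the lowest, with no overlap between TCM and CCM. With TCM it was 0.656 times the CCM level, a log2 FC of −0.61 ± 0.10 with an adjusted P value of 0.00187 in edgeR, and between −0.52 and −0.69 when any 1 library was left out. The FCs of LA over vehicle (0.35 ± 0.10) and of CCM over vehicle (0.41 ± 0.10) did not pass, with adjusted P values of 0.119 and 0.0763 in edgeR. Of its exon bases, 5.6% are shared with Utp14b on the same strand.

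Acsl4, which prefers arachidonate and other polyunsaturated chains, stood at 46.5 and 49.9 CPM with vehicle and 65.8 and 85.4 with LA. Both LA libraries were the higher, and they differed more from each other than the vehicle libraries did. The rise was 1.57-fold, a log2 FC of 0.66 ± 0.13 (adjusted P = 0.0243, edgeR). With TCM it stood at 61.9 and 63.4 CPM against 57.2 and 53.0 with CCM, a log2 FC of 0.19 ± 0.13 that did not pass. The call with LA was lost without vehicle library 1 (log2 FC 0.61), without vehicle library 2 (0.71) and without LA library 2 (0.45). Acsl1 and Acsl5 had log2 FCs of 0.38 ± 0.15 and −0.06 ± 0.09 with TCM and of −0.01 ± 0.15 and 0.04 ± 0.09 with LA, and neither was called.

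Of the 4 thioesterases, which split acyl-CoA into free acid and coenzyme A, Acot2 fell with TCM. This mitochondrial enzyme stood at 19.0 and 17.8 CPM with TCM, 26.0 and 28.1 with CCM, 28.4 and 28.3 with vehicle, and 26.7 and 19.9 with LA. Both TCM libraries were below both CCM libraries, and LA library 2 lay near them. With TCM it was 0.681 times the CCM level, a log2 FC of −0.56 ± 0.15 (adjusted P = 0.021, edgeR). Its adjusted P values in edgeR were 0.0717 without CCM library 1 and 0.129 without CCM library 2. Acot1, the cytosolic paralog that lies next to it on chromosome 12 and is nearly identical in sequence, had a log2 FC of −0.06 ± 0.27, and reads could be split between them in counting. Acot9 and Acot13 were not called, at −0.19 ± 0.10 and 0.43 ± 0.17.

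No gene of the carnitine shuttle was called in any comparison. Cpt1a, the outer-membrane transferase that sets the rate of entry, stood at 58.6 and 65.6 CPM with TCM, 56.7 and 55.3 with CCM, 47.8 and 54.2 with vehicle, and 36.7 and 51.3 with LA. The TCM libraries were the highest by a small margin, the LA libraries were far apart, and the log2 FCs were 0.15 ± 0.15 with TCM and −0.20 ± 0.15 with LA. Cpt2, the inner-membrane transferase, stood at 35.3 and 35.6 CPM with TCM and 28.1 and 28.7 with CCM. These did not overlap, and the log2 FC of 0.32 ± 0.11 did not pass (adjusted P = 0.0635, edgeR). Slc25a20, the carnitine-acylcarnitine carrier, and Crat, the carnitine acetyltransferase, had log2 FCs of 0.12 ± 0.10 and 0.25 ± 0.11. Cpt1c, the form best known from neurons, passed the test downward with TCM inside the fold threshold, at −0.37 ± 0.11 (adjusted P = 0.0318, edgeR), and 6.53% of its exon bases overlap 6530437J22Rik on the other strand.

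Acyl-CoA dehydrogenases catalyze the first oxidation, each for its range of chains. With TCM 3 of the 9 rose, none fell, and 8 of 9 log2 FCs were above 0. Of all genes tested, 8.83% were called higher, 10.2% lower, and 50% had a log2 FC above 0. Acads, for short chains, stood at 48.6 and 43.8 CPM with TCM, 32.7 and 35.4 with CCM, 38.3 and 35.2 with vehicle, and 41.2 and 37.9 with LA. The TCM libraries were the 2 highest of the 8, and LA and vehicle overlapped. Acads rose by a log2 FC of 0.44 ± 0.11 (adjusted P = 0.0165, edgeR). Acadsb, for short branched chains from isoleucine, stood at 150 and 160 CPM with TCM, 115 and 116 with CCM, 132 and 128 with vehicle, and 111 and 110 with LA. The conditions did not overlap and were ordered TCM, vehicle, CCM and LA. Acadsb rose over CCM by 0.42 ± 0.09 (adjusted P = 0.00605, edgeR), while its log2 FC with LA, −0.23 ± 0.09, did not pass. Acad10, of which the substrate in cells is less clear, stood at 6.96 and 6.33 CPM with TCM and at 3.63 in both CCM libraries, while vehicle, at 4.02 and 2.68, overlapped LA, at 4.73 and 2.96. TCM did not overlap CCM, with a log2 FC of 0.87 ± 0.27 (adjusted P = 0.0377, edgeR), and DESeq2 did not call it (adjusted P = 0.0844).

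The calls of these 3 dehydrogenases were lost without CCM library 1 and without CCM library 2, with log2 FCs of 0.38 and 0.50 for Acads, 0.41 and 0.42 for Acadsb, and 0.87 and 0.87 for Acad10. Those of Acads and Acad10 were also lost without TCM library 1, at 0.36 and 0.80, and that of Acadsb without TCM library 2, at 0.37. The dehydrogenases for medium, long and very long chains were not called. Acadm, for medium chains, stood at 132 and 112 CPM with TCM against 133 and 135 with CCM, and at 125 and 114 with LA against 145 and 117 with vehicle. TCM lay below CCM by a narrow margin and LA overlapped vehicle, at log2 FCs of −0.13 ± 0.12 in both. Acadl, for long chains, stood at 71.6 and 68.8 CPM with TCM, 54.0 and 54.0 with CCM, 50.5 and 53.2 with vehicle, and 62.0 and 60.9 with LA. Each treatment lay above its control without overlap, and TCM passed the test at 0.38 ± 0.09 (adjusted P = 0.0152, edgeR), just inside the fold threshold, while LA at 0.24 ± 0.09 did not. Acadvl, for very long chains, stood at 144 and 111 CPM with TCM against 101 and 99.8 with CCM, a log2 FC of 0.34 ± 0.13 (adjusted P = 0.0771, edgeR), and at 105 and 106 with LA between the vehicle libraries at 112 and 95.7. Of its exon bases, 42.9% overlap Dvl2 on the other strand, and whether strand was used in counting is unknown, so its level is uncertain. Acad8, Acad9 and Acad11 had log2 FCs of 0.07 to 0.19 with TCM.

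The log2 FCs of all genes by step show TCM to the right of 0 for most steps. Above 0 were 2 of 4 synthetases, 1 of 4 thioesterases and 4 of 7 genes of the hydratase, dehydrogenase and thiolase steps. Of the tested genes of lipid uptake, binding, storage and lipase control, 1 of 2 was above 0. With LA the medians by step lay on both sides of 0, from −0.48 in that last group to 0.19 in the synthetases.

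**Figure D2:**
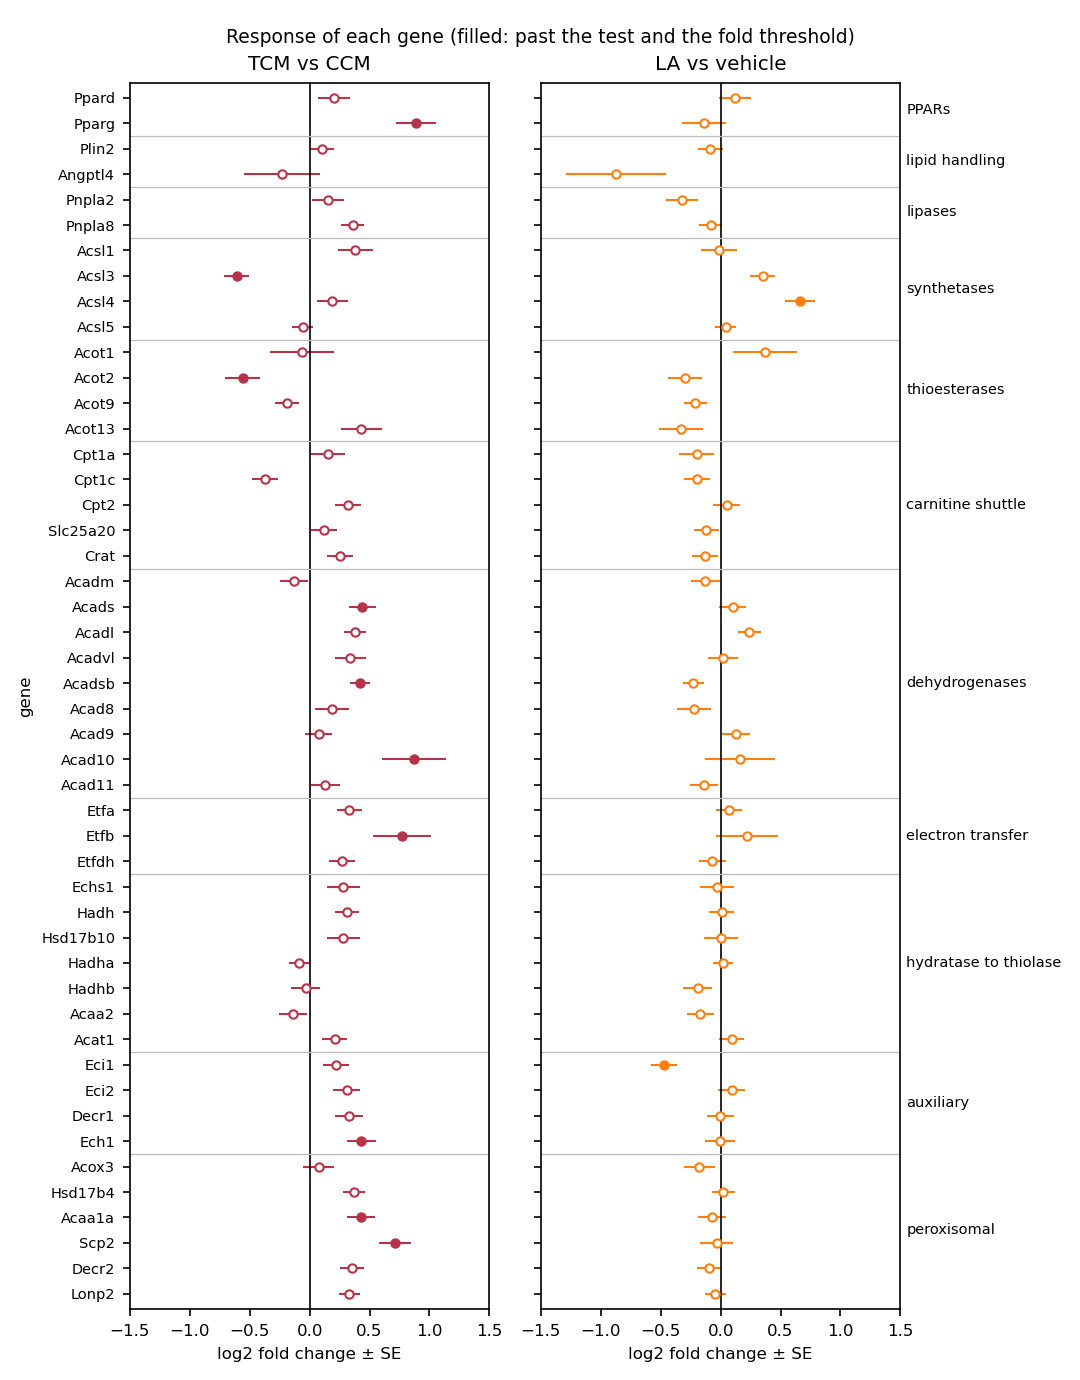
Log2 FC of TCM over CCM (left) and of LA over vehicle (right) for the 48 genes, with bars for the standard error and filled points for genes past both the adjusted P value and the fold threshold. With TCM 37 of 48 points lie above 0 and 10 are filled, whereas with LA 19 of 48 lie above 0 and 2 are filled. Of all genes tested, 50% lie above 0 with TCM and 49.9% with LA.

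All 3 genes of the electron transfer flavoprotein route had log2 FCs above 0 with TCM, as did 50% of all genes tested, and Etfb was called. Etfb, the beta subunit, stood at 36.7 and 19.9 CPM with TCM, 16.7 and 16.5 with CCM, 12.3 and 16.7 with vehicle, and 17.7 and 16.4 with LA. The first TCM library was far above all others, and the second was above the remaining 6 by a small margin. The log2 FC was 0.77 ± 0.24 (adjusted P = 0.0426, edgeR), and it was 0.26 without TCM library 1 (adjusted P = 0.331, edgeR) and 1.14 without TCM library 2. Leaving out either CCM or either LA library also lost the call, with log2 FCs of 0.76 to 0.78. Etfb has short exons of 1164 bases in all, and 58.2% of them overlap Gm45233 and Mir7051 on the same strand, so its level is uncertain. Etfa, the alpha subunit, passed the test with a log2 FC of 0.33 ± 0.10 (adjusted P = 0.0456, edgeR), inside the fold threshold, and Etfdh, the dehydrogenase that hands the electrons to ubiquinone, stood at 0.27 ± 0.11.

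None of the 7 genes of the mitochondrial hydratase, dehydrogenase and thiolase steps was called in any comparison. Hadha and Hadhb encode the subunits of the trifunctional protein for long chains. Hadha stood at 150 and 147 CPM with TCM, 158 and 158 with CCM, 162 and 167 with vehicle, and 169 and 164 with LA, the TCM libraries being the lowest of the 8 by a few percent (log2 FC −0.09 ± 0.08). Hadhb stood at 22.2 and 20.0 CPM with TCM, 22.6 and 20.6 with CCM, 22.7 and 23.8 with vehicle, and 19.8 and 20.9 with LA, which overlapped between TCM and CCM (log2 FC −0.03 ± 0.12). Hadh, for shorter chains, passed the test with TCM inside the fold threshold, at 0.31 ± 0.10 (adjusted P = 0.047, edgeR). Echs1 and Hsd17b10 stood at 0.28 ± 0.14 each, Acat1 at 0.21 ± 0.10 and Acaa2 at −0.14 ± 0.12.

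Auxiliary enzymes remove or shift double bonds so that unsaturated chains can be oxidized. All 4 had log2 FCs above 0 with TCM, as did 50% of all genes tested. Ech1, a dienoyl-CoA isomerase, stood at 59.0 and 51.3 CPM with TCM, 39.4 and 42.3 with CCM, 43.2 and 38.2 with vehicle, and 43.5 and 37.7 with LA. The TCM libraries were the highest, and the other 6 lay between 37.7 and 43.5. Ech1 rose by 0.43 ± 0.12 (adjusted P = 0.0263, edgeR). Its call was lost without CCM library 1 (0.38), CCM library 2 (0.49) or TCM library 1 (0.33). Eci2 and Decr1 stood at 0.31 ± 0.11 and 0.33 ± 0.12 and were not called.

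Eci1, the mitochondrial enoyl-CoA isomerase for chains such as oleate, was the gene that fell with LA. It stood at 28.2 and 26.0 CPM with LA, 37.4 and 37.3 with vehicle, 31.2 and 29.9 with CCM, and 37.0 and 34.2 with TCM. LA lay below CCM, and CCM lay below TCM and vehicle, without overlap. With LA it was 0.723 times the vehicle level, a log2 FC of −0.47 ± 0.11 (adjusted P = 0.0469, edgeR). Leaving out either library of vehicle, CCM or LA lost the call, with log2 FCs of −0.41 to −0.52 and adjusted P values of 0.104 to 0.312 in edgeR, and DESeq2 did not call it (adjusted P = 0.104).

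In the peroxisomal set, 2 of 6 genes rose with TCM, and all 6 log2 FCs were above 0. Of all genes tested, 8.83% were called higher and 50% had a log2 FC above 0. Scp2 encodes sterol carrier protein X, a thiolase for branched chains, and the lipid carrier made from the same gene. It stood at 72.8 and 55.6 CPM with TCM, 37.4 and 41.0 with CCM, 39.1 and 36.9 with vehicle, and 38.9 and 35.6 with LA. Both TCM libraries stood well above the other 6, which spanned 35.6 to 41.0. Scp2 rose 1.64-fold, by a log2 FC of 0.71 ± 0.13 (adjusted P = 0.00348, edgeR), and by 0.50 without TCM library 1 and 0.89 without TCM library 2.

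Acaa1a, the peroxisomal 3-ketoacyl-CoA thiolase, stood at 88.5 and 71.4 CPM with TCM, 60.6 and 58.2 with CCM, 56.4 and 54.0 with vehicle, and 51.0 and 53.7 with LA. TCM lay above all others, and LA was the lowest. Acaa1a rose by 0.43 ± 0.12 (adjusted P = 0.0217, edgeR), a call lost without TCM library 1 (0.26), CCM library 1 (0.46) or CCM library 2 (0.40). Of its exon bases, 6.57% overlap Myd88 on the other strand. Hsd17b4, the multifunctional enzyme, Decr2, a dienoyl-CoA reductase, and Lonp2, a peroxisomal protease, passed the test inside the fold threshold with log2 FCs of 0.37 ± 0.09, 0.35 ± 0.10 and 0.33 ± 0.09. Acox3, an acyl-CoA oxidase, stood at 0.07 ± 0.13.

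**Figure D3:**
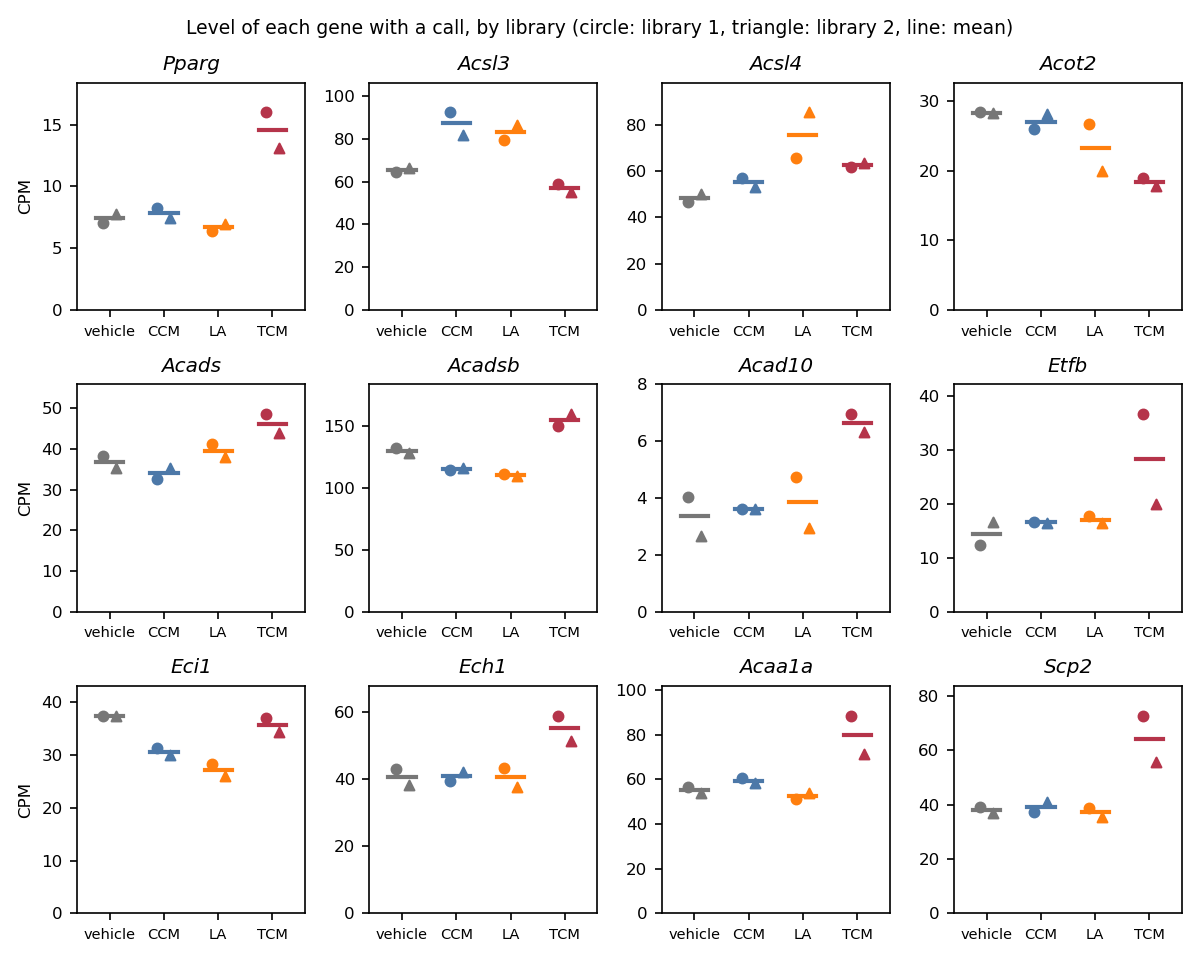
CPM of the 12 genes called between TCM and CCM or between LA and vehicle, by condition, with a circle for library 1, a triangle for library 2 and a line for their mean, on axes that start at 0. Pparg and Scp2 stand apart in both TCM libraries, the TCM libraries of Etfb differ from each other at 36.7 and 19.9 CPM, and Acsl3 is highest with CCM and LA.

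LA gave few calls among the 48 genes. Acsl4 was called higher and Eci1 lower, 2.08% in each direction, against 1.31% and 1.24% of all genes tested. The median log2 FC was −0.0379, with 19 of 48 genes above 0, 39.6% against 49.9% of all genes. In 18 of the 48 genes both LA libraries lay below both vehicle libraries, 37.5% against 24.2% of all genes. In 5 they lay above, 10.4% against 23.7%. Pparg, Scp2 and Etfb had log2 FCs of −0.14 ± 0.18, −0.03 ± 0.14 and 0.22 ± 0.26 with LA. Conditioning by FRCs alone gave no call: 0 of 48 genes passed between CCM and vehicle in edgeR and in DESeq2. Of all genes, 0.898% were called higher and 0.404% lower in edgeR. An unadjusted P value under 0.05 in edgeR was reached by 5 of the 48 genes and by 1563 of the 12137 tested. In 18 of the 48 genes both CCM libraries lay below both vehicle libraries, 37.5% against 24% of all genes. In 10 they lay above, 20.8% against 25.8%.

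Whether the TCM effect differed from the LA effect was tested directly, as the log2 FC of TCM over CCM minus that of LA over vehicle. It was above 0 for 4 genes (8.33%, against 4.45% of all genes) and below 0 for 1 gene (2.08%, against 6.00%). Pparg differed by 1.03 ± 0.25 (adjusted P = 0.0239), Scp2 by 0.74 ± 0.19 (0.0311), Eci1 by 0.69 ± 0.15 (0.015) and Acadsb by 0.65 ± 0.12 (0.00617), and Acsl3 by −0.95 ± 0.14 (0.00169), all in edgeR. In Pparg and Scp2 the difference came with TCM log2 FCs of 0.89 and 0.71 beside LA values of −0.14 and −0.03, whereas in Acsl3, Acadsb and Eci1 the 2 log2 FCs had opposite signs. For Acsl3 and Acadsb the call held without any 1 of the 8 libraries. Those of Pparg and Scp2 were lost without either library of vehicle, CCM or LA, with differences of 0.96 to 1.11 and 0.68 to 0.81. That of Pparg was also lost in DESeq2 (adjusted P = 0.0572) and that of Scp2 without TMM factors (adjusted P = 0.0731, edgeR). The call of Eci1 was lost without either vehicle or CCM library or LA library 2, at 0.63 to 0.72.

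The difference between the TCM libraries moved with exon length over all genes, and most of the genes described here were higher in TCM library 1. Over 11964 genes the log2 ratio of TCM library 1 to library 2 had a Spearman correlation of −0.526 with the log2 length of the exons, as a description of these libraries, against −0.154 within vehicle, 0.287 within CCM and −0.188 within LA. The ratio was above 0 in 37 of the 48 genes, with a median of 0.12, where the median of all genes was 0.00428. Of 5 equal classes of exon length, the shortest had a median ratio of 0.17 in the listed genes, below the 0.28 of all genes. In the next class it was 0.11 against 0.10. In the 3 classes of longest exons the median ratio of the listed genes was 0.22, 0.0464 and 0.0214, against −0.00132, −0.10 and −0.23 for all genes. Within these 3 classes the listed genes also fell with length but stayed above all genes. Without TCM library 1 there were 8 calls between TCM and CCM, 5 of them higher, a share of 10.4% that is close to the 9.01% of all genes called higher in that fit. Without TCM library 2 there were 18 calls, 16 of them higher, 33.3% against 11.9% of all genes. A fit with an offset for length gave 9 higher and 2 lower calls, the 10 above and Acsl1. These were 18.8% and 4.17% of the 48, against 9.9% and 11% of all genes in that fit. In each of 5 classes of exon length the median log2 FC of the listed genes was above that of all genes, from 0.32 against 0.0686 in the shortest to 0.13 against −0.00571 in the longest.

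**Figure D4:**
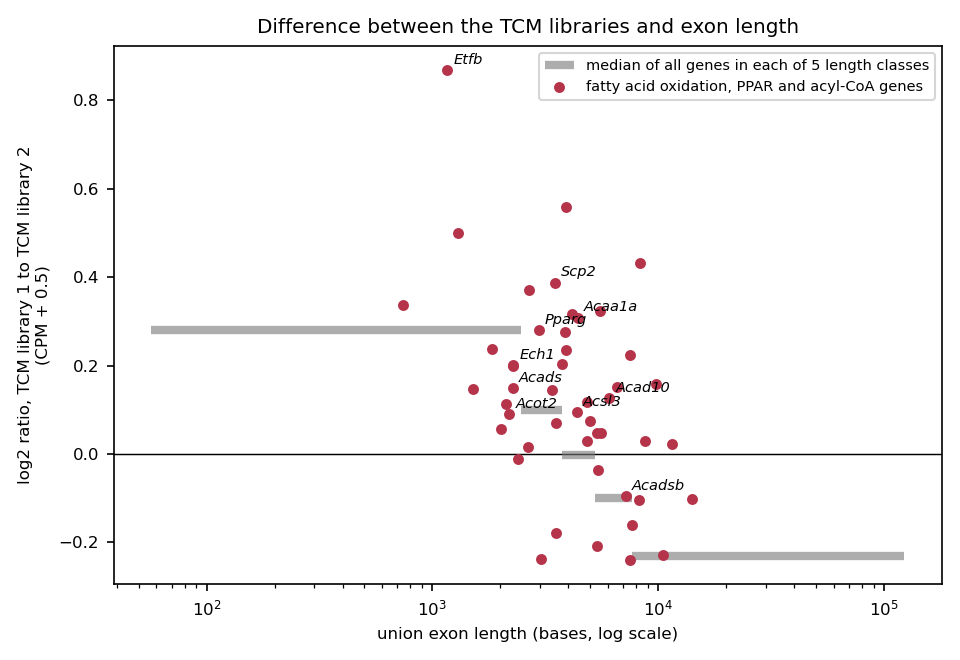
Log2 ratio of CPM + 0.5 between TCM library 1 and TCM library 2 (vertical axis) against the exon length in bases (horizontal axis, log scale) for the 48 genes as points, with grey bars for the median of all genes in each of 5 classes of length. The bars fall from 0.28 in the shortest class to −0.23 in the longest, and Etfb is the highest point.

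Other genes of the pathway were read beside these: 127 in the count table, of which 93 passed the count filter. With TCM, 10 rose and 1 fell, 10.8% and 1.08% of the 93 against 8.83% and 10.2% of all genes, with a median log2 FC of 0.12. The share that rose was thus close to that of all genes. By group, 2 of 20 other oxidation enzymes rose, 2 of 13 transport genes rose and 1 fell, and 2 of 18 genes of peroxisome biogenesis rose. Of the other synthetases, thioesterases and binding proteins, 1 of 17 rose, as did 1 of 10 PPAR partners and coregulators and 2 of 15 other PPAR-linked and lipid droplet genes.

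Pdk4, a kinase that holds back pyruvate dehydrogenase and a common PPAR target, stood at 48.9 and 55.6 CPM with TCM, 16.3 and 19.8 with CCM, 21.3 and 26.4 with vehicle, and 17.0 and 18.4 with LA. Both TCM libraries were far above the rest, at a log2 FC of 1.54 ± 0.14 (adjusted P = 4.43e-05, edgeR). Fabp4, the adipocyte fatty acid binding protein, stood at 118 and 79.8 CPM with TCM, 35.0 and 34.6 with CCM, 13.3 and 14.8 with vehicle, and 31.8 and 34.2 with LA. It was lowest with vehicle, higher with CCM and LA, and highest with TCM, without overlap between control and treatment.

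Fabp4 passed in all 3 comparisons, at 1.51 ± 0.16 for TCM over CCM, 1.23 ± 0.18 for LA over vehicle and 1.30 ± 0.18 for CCM over vehicle, and these comparisons share their control libraries in part. Of the 7 adipocyte markers, Adipoq, Lep, Cidec, Retn and Cfd were at 0 in all libraries, and only Fabp4 passed the count filter. The summed level of the markers was 79.8 to 118 CPM with TCM, 34.7 to 35.0 with CCM, 31.8 to 34.2 with LA and 13.3 to 14.8 with vehicle. Phyh, which starts the breakdown of phytanic acid, rose with TCM by 0.63 ± 0.17, from 15.4 and 15.6 CPM to 26.6 and 21.3. Slc27a3, a fatty acid transport protein, fell by 0.56 on the log2 scale, from 17.0 and 17.5 CPM to 12.6 and 10.8.

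With LA, 3 of the 93 genes rose and 1 fell, 3.23% and 1.08% against 1.31% and 1.24% of all genes. Beside Fabp4 these were Acss2, which makes acetyl-CoA from acetate, at 47.3 and 59.3 CPM against 31.3 and 31.7 with vehicle (log2 FC 0.77 ± 0.12), Acsf2, an acyl-CoA synthetase of mitochondria, at 31.7 and 27.7 CPM against 18.3 and 19.2 (0.65 ± 0.15), and Mgll, the monoglyceride lipase, at 54.3 and 59.0 CPM against 79.1 and 94.2 (−0.61 ± 0.12). None of these overlapped between LA and vehicle. The 7 melanocyte and melanoma markers summed to 2.29 to 2.63 CPM in the TCM libraries and to 1.82 to 3.04 in the CCM libraries, most of it from Pmel and Mitf, which were counted in all 8 libraries. Tyr was at 0 in all 8. Tyrp1 had 6 and 3 counts in the TCM libraries and 0 in the other 6, and Dct had 1 count in each TCM library and 0 elsewhere, and their part in the results was not tested.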

How the data were processed

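The authors prepared directional poly(A) libraries, mapped reads with STAR (GRCm38), used featureCounts to count reads per gene, and deposited counts without normalization; the strand setting is not given in the sources used here. A second deposited table, named as normalized, holds the same counts for 12137 genes (100% equal), and 0 columns were left unused. Libraries were grouped by their labels. The count filter asked for 10 counts or more in 3 libraries or more, and the test was edgeR 4.0.16 (R 4.3.3), robust quasi-likelihood, after TMM scaling (factors 0.938 to 1.04), all 8 libraries in 1 fit, with Benjamini-Hochberg adjustment, and the procedure was checked on simulated data. CPM uses TMM-scaled totals, floors cover counting error only, and standard errors are those of the fit. With 2 against 2 libraries an exact permutation test cannot go below P = 0.333, so none was run. DESeq2 1.42.0 and other alternatives are given in the closing section. The members, their roles, the other gene lists and the markers were chosen with earlier results of these data known. Genes given per library were those called and, whatever their result, Ppara, Ppard, Pparg, Cpt1a, Cpt2, Acadm, Acadl, Acadvl, Hadha, Hadhb and Cd36; of the other pathway genes, those called with LA and the 3 of largest log2 FC in each direction called with TCM. Macrophage, endothelial and epithelial markers summed to at most 24.4, 2.18 and 4.53 CPM. Positions are from GENCODE M21 and promoter sequences from RefSeq, both GRCm38.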

Additional observations from a re-analysis of the deposited data

Results flagged for a closer look

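For 5 genes the effect of TCM over CCM differed from that of LA over vehicle in the edgeR test of the difference. The difference in log2 FC was 1.03 for Pparg, 0.74 for Scp2, 0.69 for Eci1, 0.65 for Acadsb and −0.95 for Acsl3. In Pparg the TCM effect was 0.89 and the LA effect −0.14, and in Scp2 they were 0.71 and −0.03. In Acadsb they were 0.42 and −0.23, in Eci1 0.22 and −0.47, and in Acsl3 −0.61 and 0.35. The media also differ in whether they were conditioned, so the difference cannot be told apart from one between fresh and conditioned RPMI as the base.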

How the results depend on the processing

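Of 48 genes, 10 were called between TCM and CCM, and DESeq2, DESeq2's size factors, dropping the count filter, asking for 10 counts in every library and the replicate block gave 9 or 10. There were 5 calls without TMM factors, 2 higher (4.17% against 5.36% of all genes) and 3 lower (6.25% against 16.8%). In that fit the median of all genes moved to −0.14, and the share of all calls that were higher moved from 46.3% to 24.2%. With only the libraries compared there were 6 calls, 4 higher (8.33% against 6.39%) and 2 lower (4.17% against 7.88%). The adjusted P value alone gave 18, 31.2% higher against 10.1% and 6.25% lower against 11.2%. Beyond a log2 FC of 1 there were 0, where 2.06% of all genes were higher and 4.2% lower. Leaving out either CCM library left fewer calls, and the share called higher was then not above that of all genes. The median log2 FC over the 48 genes was 0.24 without CCM library 1 and 0.25 without CCM library 2. For all genes these medians were 0.00433 and 0.00134. Leaving out TCM library 2 gave more calls, at a median of 0.31 against −0.00766 for all genes. Between LA and vehicle, 2 calls became 1 without TMM factors, 1 in DESeq2 and 0 beyond a log2 FC of 1. Over all genes, 310 calls became 305, 327 and 86. The median over the 48 genes was −0.0711 to −0.0375 on leaving out a library, against −0.0379 with all 8. Between CCM and vehicle, 0 calls became 1 (Acsl3) with no filter, only the libraries compared, the length offset or the crossed pairing. Over all genes, 158 calls became 584, 679, 411 and 457. The median over the 48 genes was −0.0655 to −0.0174 on leaving out a library, against −0.031 with all 8. For the difference of the effects, 5 calls became 9 with the length offset and 1 beyond a log2 FC of 1. Over all genes, 1268 calls became 1801 and 634. With the length offset 16.7% of the listed genes were higher and 2.08% lower, against 7.5% and 7.56% of all genes. Beyond a log2 FC of 1 these shares were 2.08% and 0%, against 1.57% and 3.65%. On leaving out a library the median difference over the 48 genes was 0.20 to 0.35, against 0.31 with all 8. The causes were not tested.

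The labels number the libraries 1 and 2 without saying that a number marks a pair, and deviations of same-numbered libraries correlated between −0.242 (CCM with TCM) and 0.353 (vehicle with LA). The replicate block gave 10, 2, 0 and 5 calls in the 4 comparisons, the numbers without it. Crossing the CCM numbers, chosen like the length offset after seeing the data, gave 11, 2, 1 and 11. The calls over all genes rose as well, from 2314, 310, 158 and 1268 without a block to 2675, 596, 457 and 1938 with the crossed numbers. Depth limits what can be said of Ppara, Fabp3 and Cd36, at or under the floor, and of Angptl4. No called gene changed sign under any alternative.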
